A study of Mus musculus with 18 samples.

Results

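The genotype by TAC interaction asks, gene by gene, whether transverse aortic constriction (TAC) moved a transcript differently in hearts of Kcp knockout mice than in wild-type hearts. TAC narrows the aorta surgically, so that the left ventricle pumps against a raised pressure, and the groups allow the question of whether loss of Kcp alters the heart's response to that load. The interaction of a gene was its change with TAC in the knockout minus its change with TAC in the wild type, on log2(FPKM + 1), where FPKM is a read abundance scaled by transcript length and library total. It was computed for all 11937 genes, of 34714 in the table, that reached 1 FPKM in at least 3 libraries. Of the 18 libraries, 17 entered: 5 knockout TAC, 5 wild-type TAC, 3 knockout sham and 4 wild-type sham. The groups are C57 mice labelled KCP knockout or WT, given either the aortic surgery or a sham operation. Mouse age, the time after surgery, the kind of Kcp allele and whether each library came from a separate mouse are not stated in the labels, so p-values measure the spread between these samples.

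A positive interaction can arise in 2 ways, from a knockout level that is high after TAC or from one that is low in sham. The main genes are therefore given with the component differences of their interaction: knockout minus wild type after TAC, and knockout minus wild type in sham. Log2 values of genes and lists are differences of log2(FPKM + 1), which understate the fold change of low genes, and ± on them gives the standard error. Every adjusted p is from limma with Benjamini-Hochberg over the 11937 genes, and "called" means adjusted p under 0.05.

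The product of Kcp, kielin/chordin-like protein, is a secreted modulator of BMP and TGF-beta signalling. Pressure overload is known to switch the ventricle towards fetal genes such as the natriuretic peptides, to raise matrix genes, and to lower genes of fatty acid oxidation and mitochondrial respiration. Endothelins, among the peptides described here, are vasoactive ligands that are cut from precursors by converting enzymes and act on G protein-coupled receptors.

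No interaction was called for Kcp itself. The knockout TAC libraries had 0.952, 0.935, 0.791, 0.637 and 0.494 FPKM, against 0.985, 1.04, 1.48, 1.07 and 1.04 FPKM in wild-type TAC. Knockout sham had 0.666, 0.673 and 0.655 FPKM, against 0.794, 1.43, 0.888 and 1.02 FPKM in wild-type sham. Knockout libraries were lower under both surgeries without overlap, yet Kcp RNA was not absent from them. Its interaction was 0.01 ± 0.15 (95% interval -0.30 to 0.31, adjusted p = 0.987), and its genotype difference was -0.27 ± 0.10 after TAC (adjusted p = 0.0843) and -0.28 ± 0.12 in sham (adjusted p = 0.301). Of 74 tested genes within 10 Mb of Kcp, 0 were called for the interaction, against 0.930% of all genes tested. For the genotype difference, 7 of the 74 were called after TAC and 0 in sham, against 11.3% and 1.26% of all genes.

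Some facts about the libraries touch every result. Knockout sham replicate 2 was left out because its library is named as 3 and 4 joined, and the name of knockout TAC replicate 4 is also a joined one. A set of 17 genes was lower, by more than 0.5 on the log2 scale, in the 10 libraries of wild-type TAC replicate 5 and all knockout samples than in the 8 other wild-type libraries, and 0 of these 17 were interaction genes. Knockout TAC replicate 2 was the library of its group nearest to the wild-type TAC mean for 70 of the 111 interaction genes, against 28.1% of all genes tested. The part of these library differences in the results was not tested beyond the fits that leave libraries out and a fit with a term for the set of 10 libraries, added after the data were seen, in which 17 genes were called for the interaction in place of 111. Of 8 listed atrial markers, Myl7, Sln, Bmp10 and Myl4 were low beside those of ventricle. Kcnj3, also listed, averaged 6.63 FPKM in knockout TAC, 12.6 in wild-type TAC, 21.5 in knockout sham and 20.5 in wild-type sham. Dkk3 and Gja5 averaged 3.35 FPKM or less in every group, and Nppa is described below. Myl7 averaged 0.0999 FPKM in knockout TAC, 0.0436 in wild-type TAC, 0.187 in knockout sham and 0.125 in wild-type sham. Sln averaged 0 FPKM in both knockout groups, 0.0757 in wild-type TAC and 0.198 in wild-type sham, Bmp10 was at 0 but for 0.0317 FPKM in wild-type TAC, and Myl4 averaged 0.826 FPKM in knockout TAC, 0.429 in wild-type TAC, 0.711 in knockout sham and 1.37 in wild-type sham. The ventricular marker Myh6 averaged 4037 ± 168 FPKM in knockout TAC, 4733 ± 368 in wild-type TAC, 5702 ± 63.9 in knockout sham and 5387 ± 87.2 in wild-type sham (SD, n = 5, 5, 3 and 4).

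The interaction was called for 111 genes, 0.930% of those tested, 45 of them positive (0.377%) and 66 negative (0.553%). At an unadjusted p under 0.05 there were 2245 genes, and the median interaction of all genes was 0.03. Adjusted p ran from 0.0096 to 0.0497 among called genes, so many lay close to the threshold. The number called depended on single libraries. It was 7 without knockout sham replicate 1, 10 without wild-type sham replicate 3, 17 without wild-type TAC replicate 5 and 23 without wild-type sham replicate 1. It was 30 and 33 without knockout TAC replicates 4 and 1, 40 without replicate 3, 33 and 36 without wild-type sham replicates 4 and 2, and 34 and 43 without wild-type TAC replicates 4 and 2. It was 43 and 58 without knockout sham replicates 3 and 4, and 171 and 597 without knockout TAC replicates 5 and 2. Estimates of the 111 genes moved less than calls, at 0.756 to 1.23 times their size with all libraries. All 111 kept their sign in every one of the 17 fits in which they were tested. They were chosen for interactions large beside their standard error in these same libraries, so the kept signs add no support. Called in all 17 fits were Akip1, Cpxm2, Sbk2 and Vgll2.

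**Figure D1:**
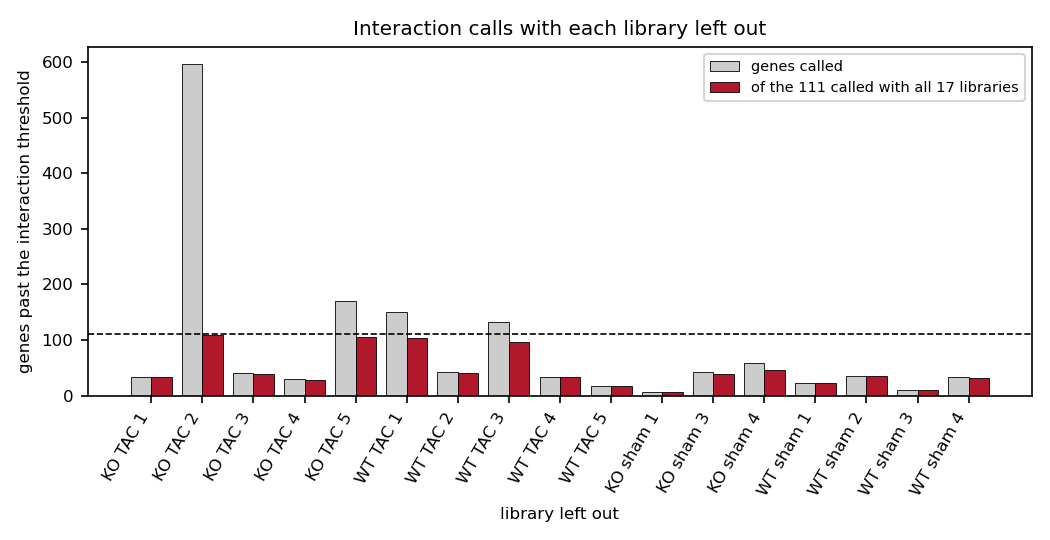
Genes past the interaction threshold when each of the 17 libraries was left out (x axis). Grey bars count all genes called and red bars count those among the 111 called with all libraries (dashed line). The count was 7 without knockout sham replicate 1 and 597 without knockout TAC replicate 2.

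Most interaction genes had a genotype difference that was called after TAC and not in sham. The genotype difference was called after TAC only for 84 of the 111 genes (36 positive and 48 negative), in sham only for 14 (6 and 8), under both surgeries for 3 (0 and 3) and under neither for 10 (3 and 7). Over all genes tested, 1350 (11.3%) differed after TAC and 151 (1.26%) in sham, where 0.645% were higher and 0.620% lower in the knockout, and the estimate after TAC rested on 5 against 5 libraries while that in sham rested on 3 against 4. By size, the difference after TAC was the larger for 68 of the 111 genes and the sham difference for 43, where 52.4% of all genes had the larger difference after TAC. Being called for the interaction favours genes whose component differences point opposite ways, and 101 of the 111 did, against 49.5% of all genes. Positive genes had a median difference of 0.37 after TAC and -0.24 in sham. Negative genes had medians of -0.29 after TAC and 0.24 in sham. After TAC the libraries of the genotypes did not overlap, with the knockout higher, for 30 of the 45 positive genes (3.83% of all genes), and with the knockout lower for 31 of the 66 negative genes (2.87%). In sham the knockout was lower without overlap for 24 of the 45 (8.15%) and higher for 47 of the 66 (7.27%).

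**Figure D2:**
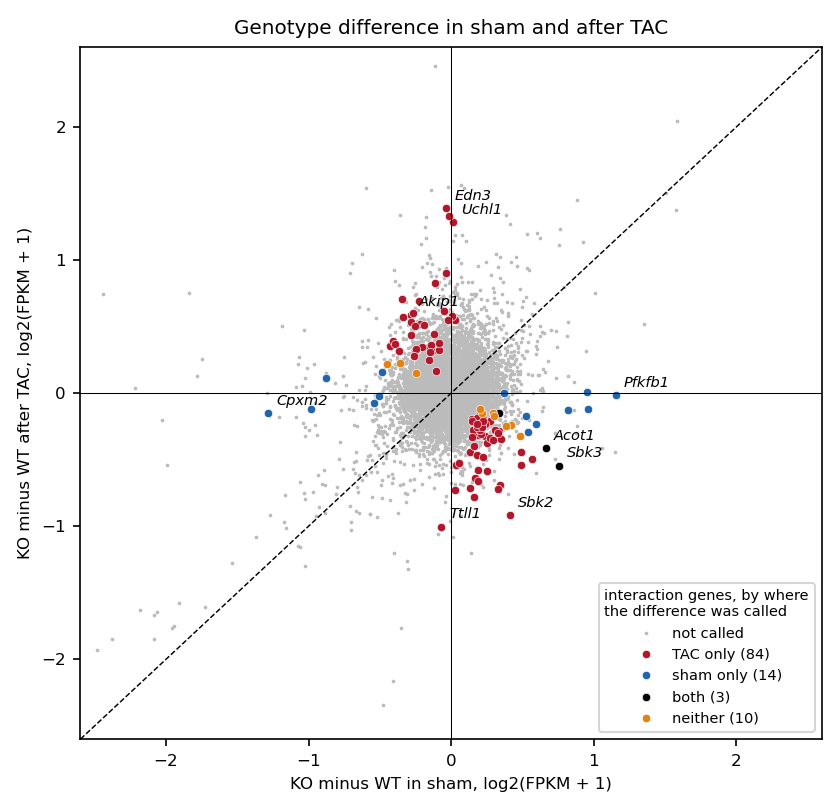
Knockout minus wild type in sham (x axis) against knockout minus wild type after TAC (y axis), both in log2(FPKM + 1), for genes tested. Vertical distance from the dashed line of equal differences is the interaction estimate. Coloured points are the 111 called genes by where the genotype difference was called, and grey points are the rest, whose interaction was not called. Called genes lie mostly above and left or below and right of the origin, with Edn3 and Uchl1 near 0 in sham and Cpxm2 and Pfkfb1 near 0 after TAC.

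Seen as responses to TAC, 24 positive genes rose in the knockout with no call in the wild type and 19 rose in both genotypes, where 21.1% of all genes rose in the knockout and 10.7% in the wild type. Of the negative genes, 29 fell in the knockout with no call in the wild type and 29 fell in both, where 17.7% of all genes fell in the knockout and 11.2% in the wild type. Another 4 genes rose in the wild type alone, 2 fell in the wild type alone, and 4 fell in the knockout and rose in the wild type. The interaction is the difference of these 2 responses, so being called for it already favours such classes. The shares of all genes are for each genotype taken alone and not for the joint classes, so the counts only describe the called genes.

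Among the peptide genes, Edn3, which encodes endothelin-3, had the largest positive interaction among called genes. Knockout TAC libraries had 9.41, 4.72, 12.3, 6.61 and 10.5 FPKM, against 2.68, 2.34, 2.91, 2.36 and 2.45 FPKM in wild-type TAC. Knockout sham had 0.371, 0.154 and 0.896 FPKM, against 0.363, 0.332, 0.593 and 0.651 FPKM in wild-type sham. Every knockout TAC library stood above every wild-type TAC library, and the sham groups overlapped. The interaction was 1.43 ± 0.29 (adjusted p = 0.034), made of 1.39 ± 0.18 after TAC (adjusted p = 0.000313) and -0.04 ± 0.22 in sham (adjusted p = 0.961). Edn3 rose with TAC in the knockout (2.69 ± 0.21) and in the wild type (1.26 ± 0.19), and its interaction was called in 7 of 17 fits with a library left out, with adjusted p up to 0.0804.

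Ece2, an endothelin-converting enzyme gene, was close to the lower limit of the data. Knockout TAC libraries had 1.14, 1.10, 0.976, 1.24 and 0.947 FPKM, whereas wild-type TAC libraries had 0.685 and 0.328 FPKM and were listed at 0 in the other three. All knockout sham libraries and wild-type sham replicates 1, 2 and 4 were listed at 0, with 0.367 FPKM in replicate 3. Ece2 passed the filter through 3 knockout TAC libraries alone, so its selection already required the knockout to be high after TAC. Its interaction was 0.94 ± 0.21 (adjusted p = 0.0432), with 0.82 ± 0.14 after TAC and -0.11 ± 0.17 in sham. It was called in 2 of the 14 fits with a library left out in which it was tested, and with no filter its adjusted p was 0.082. Calcrl, the receptor that adrenomedullin and calcitonin gene-related peptide share, averaged 6.48 ± 0.464 FPKM in knockout TAC and 5.03 ± 0.585 in wild-type TAC (SD, n = 5 each), and 4.3 ± 0.164 in knockout sham and 4.82 ± 0.2 in wild-type sham (SD, n = 3 and 4). Its interaction of 0.45 ± 0.10 had the weakest adjusted p of these (0.0497), with 0.31 ± 0.07 after TAC and -0.13 ± 0.08 in sham. These were the 3 called of 22 tested members of the endothelin and vasoactive peptide list, all positive, where 0.377% of all genes were called positive. The list's median interaction was 0.30. This list, like the others, was chosen with earlier results of these data known, and Ece2 entered through knockout TAC alone. The count therefore only describes these genes. Edn2 and Nppc, also on the list, were below the filter.

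The natriuretic peptide genes were large but uncalled. Nppa had 7472, 2191, 4104, 3931 and 6151 FPKM in knockout TAC, against 2669, 1560, 1901, 1510 and 646 FPKM in wild-type TAC. Its interaction was 2.14 ± 0.61 (adjusted p = 0.0903), with 1.54 ± 0.39 after TAC and -0.60 ± 0.47 in sham. Nppb had an interaction of 1.69 ± 0.43 (adjusted p = 0.0695), of which 0.50 ± 0.27 lay after TAC and -1.18 ± 0.33 in sham. For Nppb, then, the larger component was in sham, where knockout libraries had 54.4, 41.1 and 70.2 FPKM, against 144, 90.4, 138 and 131 FPKM in wild-type sham.

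**Figure D3:**
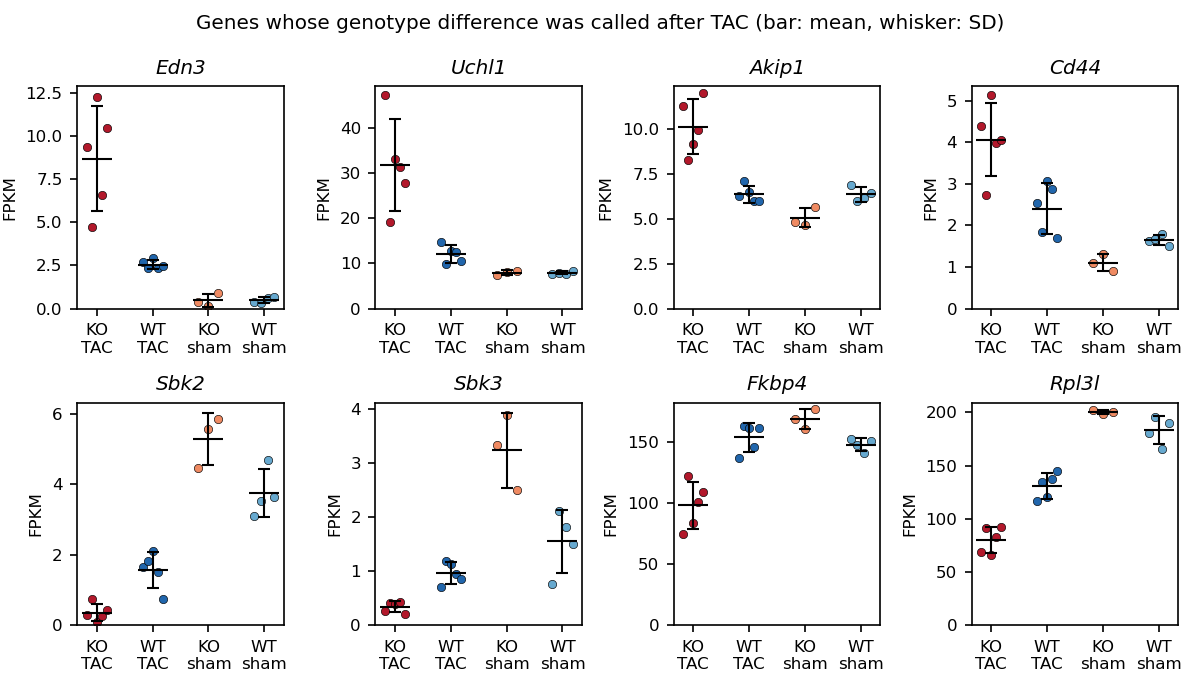
FPKM per library (points), group mean (bar) and SD (whisker) for 8 genes whose genotype difference was called after TAC, with knockout TAC, wild-type TAC, knockout sham and wild-type sham from left to right. Edn3 averaged 8.71 FPKM in knockout TAC and 2.55 in wild-type TAC, while both sham groups averaged under 0.5 FPKM.

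Uchl1, a neuronal-type deubiquitinase gene counted here with the stress genes of cardiomyocytes, had the same shape as Edn3. Knockout TAC libraries had 47.4, 19.2, 33.1, 31.4 and 27.9 FPKM, against 14.7, 9.78, 12.8, 12.5 and 10.5 FPKM in wild-type TAC. Knockout sham had 7.41, 8.20 and 8.29 FPKM, against 7.60, 7.88, 7.75 and 8.35 FPKM in wild-type sham. The TAC groups were apart and the sham groups interleaved. The interaction was 1.27 ± 0.25 (adjusted p = 0.034), with 1.28 ± 0.16 after TAC and 0.01 ± 0.20 in sham. It was the 1 called gene among 17 tested fetal and stress genes, whose median interaction was 0.47, and its call held in 5 of 17 fits with a library left out.

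Akip1 encodes a protein that binds the catalytic subunit of protein kinase A. It had 11.3, 8.27, 9.17, 9.93 and 12.0 FPKM in knockout TAC, against 6.30, 7.09, 6.49, 5.98 and 5.99 FPKM in wild-type TAC. Knockout sham had 4.83, 4.68 and 5.68 FPKM, against 6.90, 5.97, 6.14 and 6.47 FPKM in wild-type sham. The genotypes separated in both surgeries, in opposite directions. The interaction was 0.87 ± 0.13 (adjusted p = 0.0124), with 0.59 ± 0.08 after TAC (adjusted p = 0.00051) and -0.28 ± 0.10 in sham (adjusted p = 0.195). Akip1 rose with TAC in the knockout (0.87 ± 0.10), whereas its wild-type change was -0.00 ± 0.09. It was the 1 member called of 21 tested genes of protein kinase A and its anchoring proteins, which had a median interaction of 0.10.

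Vgll2, which encodes a cofactor of TEAD transcription factors, was the remaining positive gene called in every fit and was named after its values were seen. It had 2.71, 2, 3.57, 1.74 and 2.08 FPKM in knockout TAC, against 0.541, 0.159, 0.362, 0.418 and 0.245 FPKM in wild-type TAC, and sham libraries of both genotypes stayed at or below 0.181 FPKM. Its interaction was 1.34 ± 0.19 (adjusted p = 0.0096), with 1.33 ± 0.12 after TAC and -0.01 ± 0.15 in sham. Vgll2 reached 1 FPKM in the knockout TAC libraries alone and so passed the filter through the group where it was high. With no filter its adjusted p was 0.0241. Of the 111 called genes, 3 passed in this way. Cd44, the hyaluronan receptor, had 4.40, 2.73, 5.14, 3.99 and 4.06 FPKM in knockout TAC, against 2.54, 1.83, 3.07, 2.87 and 1.70 FPKM in wild-type TAC, and these groups overlapped through knockout TAC replicate 2. Its interaction was 0.91 ± 0.20 (adjusted p = 0.0374), with 0.57 ± 0.13 after TAC and -0.34 ± 0.15 in sham. Spry1, an inhibitor of receptor tyrosine kinase signalling, averaged 27 ± 2.71 FPKM in knockout TAC and 18.8 ± 2.26 in wild-type TAC (SD, n = 5 each), with an interaction of 0.76 ± 0.14 (adjusted p = 0.0264), of which 0.50 ± 0.09 lay after TAC and -0.25 ± 0.11 in sham. The other positive genes of the naming rule with a difference called after TAC only were Nlrc3 (0.94), Aldh1a1 (0.87), Plek (0.82), Pla2g4a (0.80), Pla1a (0.78), Snhg12 (0.76), Cyb5r3 (0.72) and Ulk3 (0.70).

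The negative side was led by a neighbouring pair of kinase genes. Sbk2 (chromosome 7, 4956134 to 4964406) and Sbk3 (chromosome 7, 4965247 to 4981041) belong to the SH3-binding kinase family, and their annotated ends lie 841 bases apart in GRCm38. Sbk2 had 0.276, 0.738, 0.0744, 0.265 and 0.424 FPKM in knockout TAC, against 1.66, 1.82, 2.10, 1.52 and 0.749 FPKM in wild-type TAC. Knockout sham had 4.45, 5.58 and 5.85 FPKM, against 3.10, 3.53, 4.70 and 3.64 FPKM in wild-type sham. The TAC groups did not overlap, though knockout replicate 2 at 0.738 FPKM and wild-type replicate 5 at 0.749 FPKM almost met. The interaction was -1.33 ± 0.23 (adjusted p = 0.0212), with -0.92 ± 0.15 after TAC (adjusted p = 0.0012) and 0.41 ± 0.18 in sham (adjusted p = 0.303).

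Sbk3 differed in sham as well. Knockout TAC libraries had 0.262, 0.4, 0.39, 0.431 and 0.206 FPKM, against 0.701, 1.19, 1.13, 0.936 and 0.841 FPKM in wild-type TAC. Knockout sham had 3.32, 3.87 and 2.5 FPKM, against 0.749, 2.11, 1.82 and 1.5 FPKM in wild-type sham. The genotypes were apart under both surgeries, with the knockout low after TAC and high in sham. The interaction was -1.30 ± 0.21 (adjusted p = 0.0176), with -0.55 ± 0.13 after TAC (adjusted p = 0.015) and 0.75 ± 0.16 in sham (adjusted p = 0.0263). These were the 2 called of 18 tested SBK and muscle kinase genes, both negative, where 0.553% of all genes were called negative. The list's median interaction was -0.13. Because the list was chosen with earlier results of these data known, the count only describes these genes. The other neighbouring interaction genes were Tnni3 and Dnaaf3, also on chromosome 7 and 215 bases apart, with interactions of -0.42 and -0.84. The counting was not stated to use strand, and strand would not separate Sbk2 from Sbk3, which are both on the minus strand. Reads near such close ends may therefore be shared.

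Promoter sequences of genes at the head of each direction are shown because Sbk2 and Sbk3 moved together and because Uchl1 and Fkbp4 are searched below for a heat shock motif. Each covers 250 bases before to 50 bases after the start in RefSeq on GRCm38.p6, and capitals mark the motif found, CAGCTG in Edn3 and Sbk3 and GAANNTTC in Uchl1 and Fkbp4. They are Edn3 at chr2:174760369-174760668 on the plus strand, Uchl1 at chr5:66675871-66676170 on the plus strand, Sbk2 at chr7:4964357-4964656, Sbk3 at chr7:4970912-4971211 and Fkbp4 at chr6:128438607-128438906, these last on the minus strand. The Sbk3 window is at a start inside the RefSeq span of the gene given above, which reaches further upstream.
Edn3: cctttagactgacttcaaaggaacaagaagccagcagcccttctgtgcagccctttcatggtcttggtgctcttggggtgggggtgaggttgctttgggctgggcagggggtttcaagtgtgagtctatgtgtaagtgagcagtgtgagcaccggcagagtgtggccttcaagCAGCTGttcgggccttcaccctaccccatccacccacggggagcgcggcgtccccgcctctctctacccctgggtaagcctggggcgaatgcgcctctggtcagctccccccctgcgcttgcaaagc
Uchl1: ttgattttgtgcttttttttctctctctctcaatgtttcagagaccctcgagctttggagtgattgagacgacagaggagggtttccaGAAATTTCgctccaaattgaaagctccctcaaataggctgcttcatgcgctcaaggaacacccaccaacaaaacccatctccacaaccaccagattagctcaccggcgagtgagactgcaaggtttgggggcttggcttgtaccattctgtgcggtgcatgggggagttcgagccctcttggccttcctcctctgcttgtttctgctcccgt
Sbk2: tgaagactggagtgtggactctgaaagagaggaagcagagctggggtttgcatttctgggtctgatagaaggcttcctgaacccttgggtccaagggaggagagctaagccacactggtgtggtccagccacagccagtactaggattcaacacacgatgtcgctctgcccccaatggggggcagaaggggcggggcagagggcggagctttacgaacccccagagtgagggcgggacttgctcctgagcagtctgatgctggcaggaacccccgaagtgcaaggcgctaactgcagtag
Sbk3: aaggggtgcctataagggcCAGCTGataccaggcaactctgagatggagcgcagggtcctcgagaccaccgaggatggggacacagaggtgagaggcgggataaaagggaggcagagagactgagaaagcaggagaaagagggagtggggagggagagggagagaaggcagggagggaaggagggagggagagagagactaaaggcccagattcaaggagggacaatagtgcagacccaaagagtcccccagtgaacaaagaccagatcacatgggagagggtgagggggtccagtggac
Fkbp4: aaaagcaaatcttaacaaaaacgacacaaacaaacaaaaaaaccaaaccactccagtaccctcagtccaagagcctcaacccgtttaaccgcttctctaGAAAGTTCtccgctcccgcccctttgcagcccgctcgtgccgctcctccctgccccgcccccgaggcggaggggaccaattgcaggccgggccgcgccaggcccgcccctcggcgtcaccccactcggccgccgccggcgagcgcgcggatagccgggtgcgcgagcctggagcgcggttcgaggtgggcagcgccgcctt
CAGCTG, an E-box, and GAANNTTC, the inverted pair of heat shock element units, read the same on either strand. CAGCTG was in 4 of 39 positive genes with a promoter in the table (10.3%), 10 of 58 negative genes (17.2%) and 16.1% of all 27025 promoters. GAANNTTC was in 3 of 39 positive genes (7.69%), 4 of 58 negative genes (6.9%) and 7.95% of all promoters. A match is a description of letters and not a binding site.

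Genes of lipid use were found on the negative side. Acot1, a cytosolic thioesterase gene that cleaves long-chain acyl-CoA and is a known PPAR alpha target, had 2.17, 3.09, 2.08, 2.52 and 1.79 FPKM in knockout TAC, against 2.71, 3.58, 3.20, 3.83 and 3.79 FPKM in wild-type TAC. Knockout sham had 10.3, 9.86 and 9.53 FPKM, against 7.07, 7.52, 4.63 and 4.82 FPKM in wild-type sham. The sham groups were apart with the knockout higher, and the TAC groups overlapped with the knockout lower on average. The interaction was -1.08 ± 0.19 (adjusted p = 0.0212), with -0.42 ± 0.12 after TAC (adjusted p = 0.0367) and 0.66 ± 0.15 in sham (adjusted p = 0.0319). Acot1 and Acot2 are near-identical paralogs, so the split of reads between them is uncertain. Acot2 itself had an interaction of -0.59 ± 0.14 (adjusted p = 0.0521), and Acot1 was the 1 member called of 8 tested thioesterases, whose median was -0.30.

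All 30 tested fatty acid oxidation genes had an interaction below 0, against 44.7% of all genes tested, with a median of -0.35. Of these 30, 4 were called, all negative, against 0.553% of all genes. The medians of the component differences were -0.16 after TAC and 0.20 in sham. Acsl1, the long-chain acyl-CoA synthetase that activates fatty acids, had 169.9, 219.9, 168, 178 and 181 FPKM in knockout TAC, against 214, 240.4, 229.9, 218 and 241 FPKM in wild-type TAC. Knockout sham had 317, 279.6 and 308 FPKM, against 261, 266, 256 and 241 FPKM in wild-type sham. Acsl1 was thus higher in every knockout sham library and lower in 4 of 5 knockout TAC libraries than in any wild-type library of the same surgery, knockout TAC replicate 2 being the exception. Its interaction was -0.56 ± 0.10 (adjusted p = 0.0253), with -0.32 ± 0.07 after TAC and 0.23 ± 0.08 in sham. The others called were the enoyl-CoA isomerase gene Eci1 (-0.50 ± 0.11), the carnitine-acylcarnitine carrier gene Slc25a20 (-0.47 ± 0.10) and Etfdh (-0.45 ± 0.10), which passes electrons from this pathway to ubiquinone. Eci1 and Etfdh differed by -0.31 ± 0.07 and -0.23 ± 0.07 after TAC and by 0.19 ± 0.08 and 0.22 ± 0.08 in sham. For Slc25a20 neither component was called, at -0.18 ± 0.06 after TAC and 0.30 ± 0.08 in sham.

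Oxidative phosphorylation showed the same sign without a call. All 43 tested members were below 0, against 44.7% of all genes, and 0 were called. The median was -0.26, with -0.11 after TAC and 0.16 in sham. Ndufa5, a complex I subunit gene, had the smallest p of the list, with an interaction of -0.42 ± 0.10 (adjusted p = 0.0568). Among PPAR alpha targets 2 of 21 were called, both negative, against 0.553% of all genes, with a median of -0.32. They were Acot1 and Slc25a20, both already counted above in other lists. Genes of glucose use were mixed, with 16 of 28 tested above 0, near the 55.3% of all genes, and a median of 0.10. After TAC 9 of them were called higher in the knockout and 5 lower, against 6.53% and 4.78% of all genes tested. For the interaction 2 of the 28 were called, both negative, against 0.553% of all genes. They were Pfkfb1, described with the sham genes, and Mpc2, a subunit of the mitochondrial pyruvate carrier (-0.59 ± 0.13, adjusted p = 0.0364). Like the fatty acid oxidation and respiration genes, ventricular cardiomyocyte markers were mostly below 0 (7 of 8 tested, against 44.7% of all genes). Their median interaction was -0.27. Tnni3, which encodes cardiac troponin I, was the 1 called (-0.42 ± 0.10). Sarcomere and Z-disc genes, also of cardiomyocytes, were mixed, with 10 of 22 above 0, against 55.3% of all genes, and a median of -0.04. The summed level of the 8 ventricular markers was 33979 to 37779 FPKM in knockout TAC and 37542 to 41662 in wild-type TAC. It was 43220 to 46347 FPKM in knockout sham and 42264 to 43809 in wild-type sham. Fewer cells of a type and less RNA per cell cannot be told apart in heart pieces.

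Several chaperone genes were lower in the knockout after TAC. Fkbp4, a co-chaperone of HSP90, had 74.9, 122, 83.5, 101 and 109 FPKM in knockout TAC, against 137, 163, 162, 146 and 162 FPKM in wild-type TAC. Knockout sham had 169, 161 and 177 FPKM, against 152, 148, 141 and 150.4 FPKM in wild-type sham. The genotypes were apart under both surgeries, with the knockout low after TAC. The interaction was -0.85 ± 0.16 (adjusted p = 0.0229), with -0.66 ± 0.10 after TAC and 0.19 ± 0.12 in sham. Fkbp4 fell with TAC in the knockout (-0.80 ± 0.11), whereas its wild-type change was 0.06 ± 0.10. The HSP90 co-chaperone genes Stip1 (-0.70 ± 0.16) and Ahsa2 (-0.57 ± 0.12), both named after their values were seen, rose with TAC in the wild type (0.69 and 0.68), and their knockout changes were -0.01 and 0.11. In the heat shock list 1 of 19 tested genes was called, Hspd1, which encodes the mitochondrial chaperonin HSP60 (-0.62 ± 0.13, adjusted p = 0.0364), and the median was -0.53. Hspd1 differed by -0.29 ± 0.09 after TAC and by 0.34 ± 0.10 in sham. The genotype difference after TAC was called lower for 10 of these 19 and higher for 1, against 4.78% and 6.53% of all genes tested, and in sham it was called for 0.

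Rpl3l, the muscle paralog of ribosomal protein L3, had 68.7, 90.9, 65.4, 82.9 and 91.7 FPKM in knockout TAC, against 116, 135, 120.2, 137 and 145 FPKM in wild-type TAC. Knockout sham had 202, 198 and 201 FPKM, against 180.2, 196, 166 and 189.9 FPKM in wild-type sham. Rpl3l fell with TAC in both genotypes, by 1.33 in the knockout and by 0.48 in the wild type on the log2 scale. Its interaction was -0.84 ± 0.14 (adjusted p = 0.0202), with -0.71 ± 0.09 after TAC and 0.13 ± 0.11 in sham, and it was the 1 member called of 25 cytosolic ribosomal protein genes, whose median was 0.05. Ttll1, which encodes a subunit of a tubulin polyglutamylase, averaged 11.8 ± 1.81 FPKM in knockout TAC and 24.7 ± 3.76 in wild-type TAC (SD, n = 5 each), and 38.7 ± 4.74 in knockout sham and 40.7 ± 3.82 in wild-type sham (SD, n = 3 and 4). Its interaction of -0.93 ± 0.16 lay almost whole in the difference after TAC (-1.0 ± 0.11), with -0.07 ± 0.13 in sham. Further negative genes of the naming rule with a difference called after TAC only were Whrn (-1.06), Stard10 (-1.05), Klhl33 (-1.03), Tmem82 (-0.93) and Cmss1 (-0.81). A sham difference without a call was not shown to be absent. Of all 66 negative genes, 65 had a sham difference above 0.

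The 14 genes called in sham only already differed between genotypes without the load, and their difference after TAC was not called. Cpxm2, which encodes a secreted carboxypeptidase-like protein, shared the lowest adjusted p with Vgll2. Knockout TAC libraries had 23.0, 20.7, 24.5, 20.9 and 28.7 FPKM, against 28.0, 26.1, 23.3, 22.4 and 31.6 FPKM in wild-type TAC. Knockout sham had 5.35, 4.94 and 4.82 FPKM, against 16.1, 14.2, 11.5 and 13.4 FPKM in wild-type sham. The TAC groups interleaved, and every knockout sham library was below every wild-type one. The interaction was 1.13 ± 0.16 (adjusted p = 0.0096), with -0.15 ± 0.10 after TAC (adjusted p = 0.375) and -1.28 ± 0.12 in sham (adjusted p = 9.76e-06). Its rise with TAC, 2.02 ± 0.12 in the knockout and 0.88 ± 0.11 in the wild type, thus started from a lower sham level in the knockout.

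Pfkfb1, an isoform of the enzyme that makes and degrades the glycolytic regulator fructose bisphosphate, was the mirror case. It had 2.02, 4.83, 2, 2.97 and 2.14 FPKM in knockout TAC, against 2.90, 2.28, 2.22, 2.61 and 3.68 FPKM in wild-type TAC. Knockout sham had 18.6, 21.6 and 17.7 FPKM, against 7.78, 8.88, 8.59 and 7.26 FPKM in wild-type sham. Only the sham groups were apart. The interaction was -1.17 ± 0.24 (adjusted p = 0.0364), with -0.02 ± 0.15 after TAC and 1.15 ± 0.19 in sham, and its call held in 4 of 17 fits with a library left out. Also called in sham only were the metalloprotease gene Adam19 (interaction 0.99, sham difference -0.88), Cep170 (0.65 and -0.48) and Tnip1, an inhibitor of NF-kappa B signalling (0.48 and -0.51), and on the negative side Prr29 (-0.94 and 0.82), Dnaaf3 (-0.84 and 0.54) and Etfbkmt (-0.70 and 0.52). The sham estimates rest on 3 knockout libraries, and the number of genes called in sham, 151, was 93, 50 and 73 without knockout sham replicates 1, 3 and 4, and 86 and 78 without wild-type sham replicates 1 and 3. The number called after TAC, 1350, was 663 and 857 without knockout TAC replicates 1 and 4 and 870 without wild-type TAC replicate 4.

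**Figure D4:**
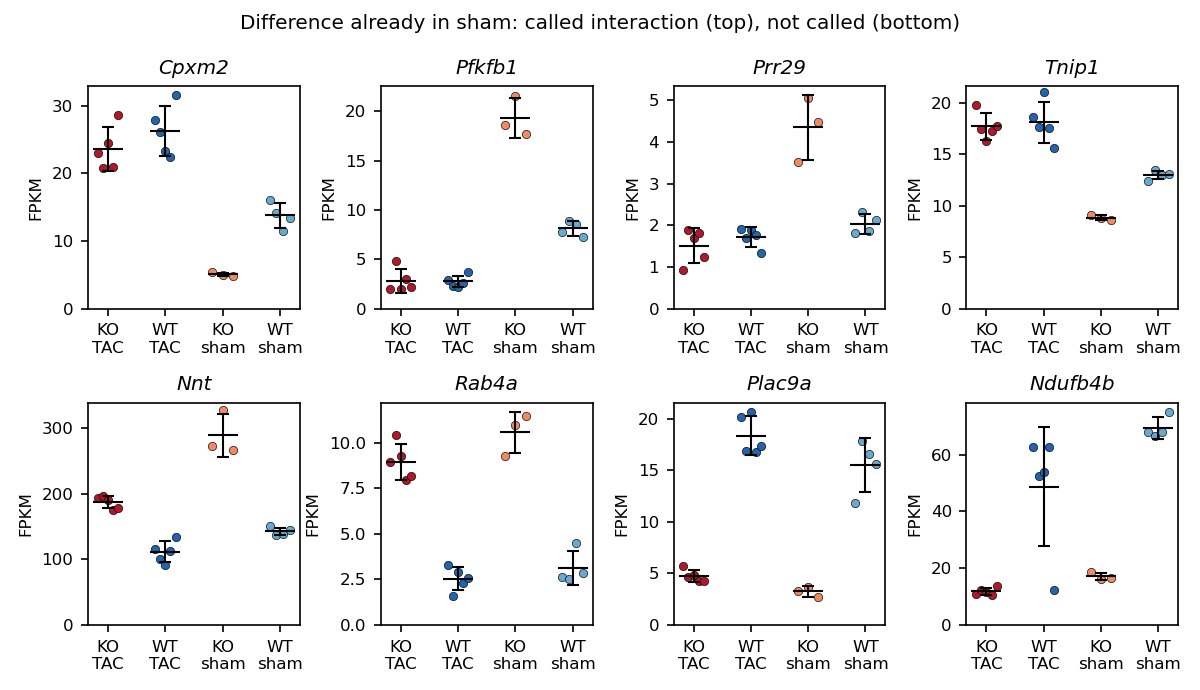
FPKM per library (points), mean (bar) and SD (whisker) for genes that differed in sham, with knockout TAC, wild-type TAC, knockout sham and wild-type sham from left to right. The top row shows genes called for the interaction in sham only and the bottom row genes that differed under both surgeries without an interaction call. Cpxm2 averaged 5.04 FPKM in knockout sham and 13.8 in wild-type sham, but 23.6 in knockout TAC and 26.3 in wild-type TAC.

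Besides Sbk3 and Acot1, Agpat3, an acyltransferase gene of phospholipid synthesis, differed under both surgeries in opposite directions. It had 25, 26.8, 23.4, 24.4 and 24 FPKM in knockout TAC, against 26.7, 27.9, 27.2, 26.4 and 29.8 FPKM in wild-type TAC. Knockout sham had 40.4, 36.5 and 38.9 FPKM, against 30.0, 31.9, 29.9 and 29.9 FPKM in wild-type sham. The sham groups were apart and the TAC groups overlapped by knockout replicate 2. Its interaction was -0.48 ± 0.07 (adjusted p = 0.0145), with -0.15 ± 0.05 after TAC and 0.33 ± 0.06 in sham, and it was called in 16 of 17 fits with a library left out. Of the 10 genes with neither component called, the naming rule gave Gipc2 (0.67), Plcg2 (0.59) and Wwtr1 (0.40), which encodes the Hippo pathway coactivator TAZ, and Fitm1 (-0.66), Pdss1 (-0.63), Slc25a20 (-0.47) and Abcd3 (-0.44).

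In 4 genes the knockout fell with TAC while the wild type rose, both changes being called. Nle1, a ribosome assembly factor gene, had 2.96, 3.62, 2.64, 3.22 and 2.63 FPKM in knockout TAC, against 4.24, 5.29, 6.40, 6.77 and 4.98 FPKM in wild-type TAC. Knockout sham had 3.61, 3.64 and 6.82 FPKM, against 4.04, 3.38, 2.63 and 3.47 FPKM in wild-type sham, so knockout sham replicate 4 stood above the rest of sham. Nle1 fell by 0.46 in the knockout on the log2 scale and its wild-type change was 0.57 (interaction -1.04 ± 0.22, adjusted p = 0.0364). Without knockout sham replicate 4 the knockout change of Nle1 was -0.21 (adjusted p = 0.28) and its interaction -0.78 (adjusted p = 0.0717). The others were Pdss1, which acts in coenzyme Q synthesis (knockout -0.27, wild type 0.37), Rangrf, which helps the cardiac sodium channel to the membrane (-0.24 and 0.20), and Higd1a, a hypoxia-induced mitochondrial protein gene (-0.20 and 0.17). Without knockout sham replicate 4 the knockout change was also no longer called in these genes, at -0.21 for Pdss1, -0.21 for Rangrf and -0.15 for Higd1a. None of the 4 then had opposite responses called. Other libraries mattered as well. The wild-type rise of Rangrf and Higd1a was not called without any 1 of the wild-type sham libraries (limma adjusted p 0.0583 to 0.105). The knockout fall of Nle1 and Pdss1 was not called without knockout TAC replicate 1 or 3. The interaction calls of these 4 held in 3 to 6 of 17 fits with a library left out.

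By contrast, 63 genes differed between genotypes under both surgeries, with the same sign and no interaction call. Rab4a, a small GTPase of endosome recycling, averaged 8.93 ± 0.98 FPKM in knockout TAC and 2.55 ± 0.636 in wild-type TAC (SD, n = 5 each), and 10.6 ± 1.14 in knockout sham and 3.13 ± 0.924 in wild-type sham (SD, n = 3 and 4). Its genotype difference was 1.5 under either surgery and its interaction -0.00 ± 0.21. Dynlt1b and Wdfy1 were likewise higher in the knockout and Plac9a lower, with interactions of -0.21, 0.20 and 0.19. Ndufb4c and Ndufb4b were also lower in the knockout under both surgeries, but in wild-type TAC replicate 5 they had 7.02 and 12.3 FPKM, at the knockout level. Nnt, the proton-pumping transhydrogenase of mitochondria, was higher in the knockout by 0.75 ± 0.08 after TAC and by 1.01 ± 0.10 in sham, with an interaction of -0.26 ± 0.13 (adjusted p = 0.284). A further 1200 genes differed after TAC with neither a sham nor an interaction call, and for these a difference arising with TAC was not shown.

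Several matrix genes were of that last kind. Of 39 tested matrix genes 0 were called for the interaction, although 37 were above 0, against 55.3% of all genes, and the median was 0.56. After TAC 21 of them were called higher in the knockout, against 6.53% of all genes. Bgn, the proteoglycan biglycan, had 582, 331, 435, 544 and 458 FPKM in knockout TAC, against 295, 239, 322, 223 and 173 FPKM in wild-type TAC, and its interaction was 1.06 ± 0.25 (adjusted p = 0.0568), with 0.91 ± 0.16 after TAC and -0.15 ± 0.19 in sham. The TGF-beta induced gene Ccn2 had 389, 85.5, 318, 298 and 199 FPKM in knockout TAC, against 118, 102, 118, 131 and 89.0 FPKM in wild-type TAC, with an interaction of 1.67 ± 0.48 (adjusted p = 0.0906), of which 1.04 ± 0.31 lay after TAC and -0.63 ± 0.37 in sham. Postn (1.69 ± 0.60) and Col1a1 (0.49 ± 0.34) had adjusted p of 0.149 and 0.465. For Bgn every knockout TAC library was above every wild-type one, and for Ccn2 knockout TAC replicate 2 was below the whole wild-type group. Of 16 activated fibroblast markers 0 were called, with a median of 0.77 and Mfap4 having the smallest p (1.33 ± 0.42, adjusted p = 0.109).

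Of 32 genes of G2 and mitosis, 18 passed the filter and 0 were called, with a median of 0.67 among those tested. A gene can pass that filter through the knockout TAC libraries alone, so the median says nothing of the others. Ccnb2 had 2.35, 1.22, 3.62, 1.31 and 1.46 FPKM in knockout TAC, against 0.571, 0.173, 0.703, 1.03 and 0.461 FPKM in wild-type TAC, with an interaction of 0.98 ± 0.28 (adjusted p = 0.0848). Ccnb1, the cyclin of mitotic entry, was below the filter, at 2.14, 0.396, 3.45, 0.803 and 0.914 FPKM in knockout TAC and 0.391, 0.0943, 0.163, 0.22 and 0.357 FPKM in wild-type TAC. With no filter its interaction was 0.81 ± 0.35 (adjusted p = 0.353). Genes of G1 and S phase had 0 of 27 called and a median of 0.35.

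The p53 and p21 genes showed no called interaction in 25 tested, with a median of 0.07. Trp53 had an interaction of 0.05 ± 0.14 and Cdkn1a, which encodes p21, one of 0.58 ± 0.57 (adjusted p = 0.88 and 0.627). For Cdkn1a the TAC groups overlapped through wild-type replicate 2, at 59.7 FPKM, and knockout replicate 2, at 26.1 FPKM. Gdf15, a stress cytokine gene, had 14.4, 3.95, 14.3, 11.4 and 10 FPKM in knockout TAC, against 4.32, 2.81, 2.73, 2.05 and 2.25 FPKM in wild-type TAC, with an interaction of 1.57 ± 0.39 (adjusted p = 0.0653), of which 1.55 ± 0.25 lay after TAC and -0.02 ± 0.30 in sham. The signalling lists closest to Kcp had 0 called of 23 BMP genes (median 0.07) and 0 of 21 TGF-beta genes (median 0.27). Id1, a BMP target, had an interaction of -0.10 ± 0.26, and Tgfb2 one of 1.0 ± 0.33 (adjusted p = 0.125). Bmp7 was below the filter.

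**Figure D5:**
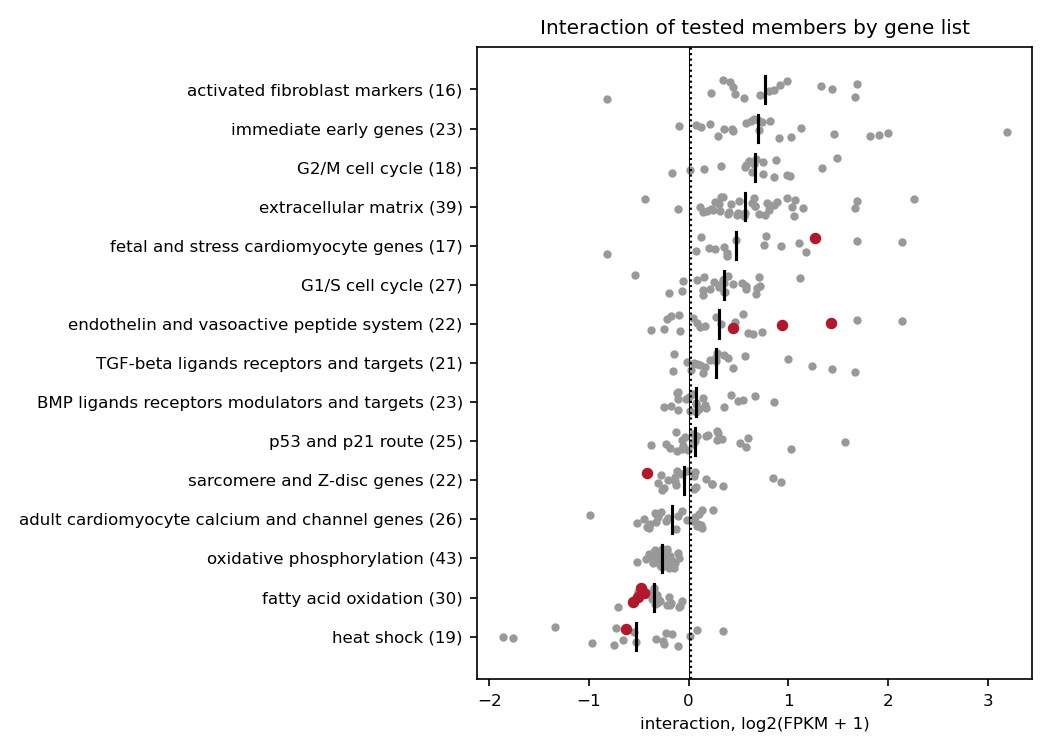
Interaction of each tested member, in log2(FPKM + 1), by gene list, with the number tested in brackets. Red points are called genes, black bars are list medians and the dotted line is the median of all genes (0.03). Medians run from 0.77 for activated fibroblast markers to -0.53 for heat shock genes, while called members are few.

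Immediate early genes, which respond to handling as well as to load, had a median of 0.70 over 23 tested with 0 called, and the component medians were -0.14 after TAC and -0.94 in sham. Fosb had the largest value, 3.19 ± 0.89 (adjusted p = 0.0848), and its wild-type sham libraries had 16.2, 4.60, 27.0 and 0.793 FPKM. Knockout sham had 1.01, 0.391 and 0.28 FPKM. The wild-type sham libraries therefore ranged widely, and the part of sample handling in these interactions was not tested.

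The remaining lists held few or no called genes. Of 22 sarcomere and Z-disc genes 1 was called (Tnni3, median -0.04), and of 26 calcium and channel genes of the adult cardiomyocyte 0 were (median -0.16). None was called among 24 genes of the unfolded protein and integrated stress response (median -0.10), 17 circadian genes (-0.03), 23 apoptosis regulators (0.16) and 19 interferon-stimulated genes (0.40). The adult and fetal myosin genes Myh6 and Myh7 had interactions of -0.31 ± 0.08 and 0.93 ± 0.53 (adjusted p = 0.0631 and 0.364), and Acta1 one of 0.39 ± 0.87 (adjusted p = 0.848).

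Markers of other heart cells had 0 called members. Median interactions were 0.49 for 7 fibroblast, 0.16 for 10 endothelial, 0.15 for 9 smooth muscle and pericyte, 0.35 for 16 macrophage and 0.65 for 5 atrial genes. The tested atrial genes include Nppa, which the loaded ventricle also expresses. Summed fibroblast markers were 440.5 to 566 FPKM in knockout TAC and 339 to 556 in wild-type TAC, and 282 to 339.8 in knockout sham and 297 to 385 in wild-type sham. Summed macrophage markers were 398 to 534 FPKM in knockout TAC and 314 to 486 in wild-type TAC, and 290.2 to 315 in knockout sham and 254 to 436 in wild-type sham. These ranges overlapped between genotypes after TAC, and their part in the interactions was not tested. Neutrophil (4 tested, median -0.00), red cell (5, 0.08), skeletal muscle (2, -0.03), nerve and Schwann (3, 0.23), lymphocyte (1, -0.28), mesothelium (1, -0.01) and sex-linked (4, -0.05) lists had 0 called, and 0 of 7 fat genes passed the filter. Ly6g, Ucp1, Myh4 and Th were listed at 0 in all libraries.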

How the data were processed

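RNA of mouse hearts was sequenced from SMARTER libraries, per the labels' protocols. The authors deposited 1 table of FPKM-like values per gene and library, whose header names no unit: FPKM was inferred from the values, which are never negative, not whole and sum to 390453 to 432264 per library. The build was mm10, per the submitters' processing notes, and no source used here names the aligner or counter. Whole reads could not be recovered, so the depth is unknown and no counting intervals are given. Each library had 11027 to 11377 genes at 1 FPKM or more. Genes at 1 FPKM in at least 3 of 17 libraries were fitted on log2(FPKM + 1) with limma 3.58.1 in R 4.3.3 (1 mean per group, intensity trend, robust moderation, Benjamini-Hochberg at 0.05), and 5 contrasts were taken from that fit, which was tested on simulated data. Comparisons that share a group share its libraries.

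Named were fixed genes of the study's theme and, among called genes with a mean of 1 FPKM and a proper name, the 15 largest interactions per direction and up to 4 per direction of each class (sham only, both, neither, opposite responses). Added were up to 3 contrast genes per direction and, from each of 39 gene lists, up to 3 called members or the 1 with the smallest p. Members and lists were chosen with earlier results of these data known. Alternatives changed the libraries, pseudocount, filter, scaling, moderation, weights and fold threshold. Replicate numbers were not used as pairs. Figures were drawn with matplotlib 3.10.9.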

Additional observations from a re-analysis of the deposited data

Results flagged for a closer look

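The 111 genes past the interaction threshold are themselves differences between genotypes in the response to TAC. Among them Nle1 (-1.04), Pdss1 (-0.63), Rangrf (-0.44) and Higd1a (-0.37) are listed because their responses ran in opposite directions, each interaction being tested by limma. The knockout fall of these 4 was no longer called without knockout sham replicate 4, and leaving out some other libraries also removed opposite calls.

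Of 288 groups of 4 or 5 libraries, over 96 named genes, 11 held a library far from the others of its group, where chance gives about 1 in 20; knockout sham, with 3 libraries, was not examined. Knockout TAC replicate 2 stood apart for Klhl33 (2.43 FPKM, the others 1.22 to 1.46), Ttll1 (15 FPKM, the others 10.6 to 11.5) and Acsl1 (220 FPKM, the others 168 to 181), each time towards the wild-type TAC level. Wild-type TAC replicate 5 was low for Ndufb4c (7.02 FPKM, the others 35.9 to 38.8), Ndufb4b (12.3 FPKM, the others 52.4 to 62.6) and Snhg12 (4.28 FPKM, the others 5.16 to 5.42). Wild-type TAC replicate 3 was high for Kcp (1.48 FPKM, the others 0.985 to 1.07), replicate 2 for Cdkn1a (59.7 FPKM, the others 23.3 to 28.5) and replicate 1 for the endothelial gene Prox1 (5.86 FPKM, the others 4.72 to 4.89). In wild-type sham, replicate 2 was high for Agpat3 (31.9 FPKM, the others 29.9 to 30) and replicate 3 for Ece2 (0.367 FPKM, the others listed at 0).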

How the results depend on the processing

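No called interaction of a named gene changed its direction under any setting run, though genes chosen as called in these same data would seldom do so. Of the values for named genes under the alternatives, 1956 kept their side of the threshold, 571 lost a call and 77 gained one. The values that kept their side include those without a call, which had none to lose. Among called interactions of named genes, 4 kept the call and 46 lost it without knockout sham replicate 1. With library weights 50 kept it and 0 lost it. With each library left out in turn, the interaction was called for 7 to 597 genes (3 to 285 positive, 2 to 312 negative). Among these, the genotype difference was called after TAC only for 3 to 449, in sham only for 2 to 45, under both for 0 to 11 and under neither for 0 to 92. The genotype difference was called for 663 to 1833 genes after TAC and 50 to 169 in sham.

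For the other settings the number called is followed by positive and negative genes. Then come those whose genotype difference was called after TAC only, in sham only, under both and under neither. With knockout sham replicate 2 put back the numbers were 300, with 173 and 127, then 216, 37, 6 and 41. Without wild-type TAC replicate 5 and knockout TAC replicate 2 together they were 460, with 211 and 249, then 332, 41, 14 and 73. With knockout sham replicate 2 in place of 3 and 4 they were 10, with 6 and 4, then 6, 3, 1 and 0. With no filter they were 16, with 5 and 11, then 9, 6, 1 and 0. With median-ratio scaling they were 204, with 55 and 149, then 139, 29, 5 and 31. With library weights they were 504, with 242 and 262, then 323, 64, 18 and 99. With the library set as a term, chosen after seeing the data, they were 17, with 4 and 13, then 9, 1, 0 and 7; the set and the genotype nearly coincide. At a log2 size of at least 1 they were 14, with 5 and 9, then 9, 3, 2 and 0. With a pseudocount of 0.1, 1 gene differed under both. The genotype difference in sham was called for 227 genes with knockout sham replicate 2 put back, 39 with it in place of 3 and 4, 270 with weights and 12 with the set term, and that after TAC for 243 with the set term. The cause of these changes was not tested.

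Of 22 same-numbered pairs, 2 correlated above 0.1, with a range of -0.238 to 0.157. No values of differently numbered pairs are given beside them, so whether the replicate numbers pair the samples was not settled. With the number as a replicate block, 345 genes were called, 163 and 182 by direction, then 215, 48, 8 and 74.

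The unknown depth limits genes near 1 FPKM, such as Ece2 and Sbk3, and 3 knockout sham libraries limit every interaction.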

Other observations

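Where a list had no called member, the gene with the smallest p is given here if it has not been described. Interactions were 0.57 ± 0.15 for the receptor gene Tgfbr1 (adjusted p = 0.0715), 0.42 ± 0.14 for the BMP effector gene Smad1 (0.107), 0.67 ± 0.17 for Ccnd2, which encodes cyclin D2 (0.0658), and 0.71 ± 0.19 for the survival gene Bcl2 (0.0695), all from limma. They were -0.40 ± 0.12 for Atp2a2, which encodes the SERCA calcium pump (adjusted p = 0.086), -0.58 ± 0.15 for the clock repressor gene Nr1d2 (0.0658) and 0.45 ± 0.18 for the interferon-induced gene Usp18 (0.188). Of cell markers, the fibroblast gene Tcf21 had 0.50 ± 0.15 (adjusted p = 0.0935), the pericyte gene Cspg4 0.46 ± 0.13 (0.0868), the macrophage gene Retnla -0.95 ± 0.25 (0.0661) and the endothelial gene Prox1 0.32 ± 0.17 (0.324).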
